A study of Mus musculus with 2 samples.

Results

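The blood vessels of the embryonic brain were described through 42 genes of the endothelium, the blood-brain barrier and the mural cells, out of 43346 genes in the tables. The genes were chosen by name, as endothelial, barrier and pericyte genes, and all 42 were found by their Ensembl identifier. Total RNA came from hindbrain of healthy B6NCrl mouse embryos at embryonic day 15.5, with no genetic change or treatment named in the labels. The series is 1 group of 2 libraries called biological replicates, which pool male and female embryos, 78 in replicate 1 and 62 in replicate 2. Both libraries took 10 ng of RNA above 200 nt as input, together with spike-in RNAs of known sequence. Estimated counts in genes came to 40020322 in replicate 1 and 43263959 in replicate 2. The data therefore give levels in this tissue and the difference between the pools, and no contrast between conditions.

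Vessels enter the hindbrain from a plexus on its surface, guided by growth factors that neural cells release. As they grow in, endothelial cells seal their contacts with tight junctions, load their membranes with nutrient carriers and efflux pumps, lose the fenestrations marked by Plvap and suppress transcytosis through Mfsd2a. Pericytes, the mural cells of capillaries, are recruited through PDGF-B and its receptor and are needed for this maturation. Wnt7a and Wnt7b from neural progenitors, read by a receptor complex that contains Reck and Adgra2 (Gpr124), drive much of the barrier programme. Vessels of the choroid plexus, which lies in the roof of the hindbrain, stay fenestrated and keep Plvap.

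Levels are given in TPM, a relative abundance corrected for transcript length. A gene was called detected at 1 TPM or more in both libraries. All 42 members were detected, against 63.1% of the 21461 nuclear protein-coding genes. The same share is the background for the detection counts of all other gene lists given below. The median member stood at 8.255 TPM, with library medians of 8.21 TPM in replicate 1 against 8.665 TPM in replicate 2 (SD 0.322, n = 2). The median of all nuclear protein-coding genes was 5.72 TPM. Together the members held 0.119% of the counts in genes in replicate 1 and 0.121% in replicate 2. Of the members, 3 averaged above 50 TPM, 15 lay between 10 and 50 TPM, 22 between 2 and 10 TPM, and 2 were under 2 TPM. When the 42 genes were ordered by mean TPM, 15 of the 41 neighbouring pairs did not overlap between libraries, and the other 26 pairs could not be told apart beyond that spread. In whole tissue, few cells of a type and little RNA per cell cannot be told apart, so a low level here does not describe a single endothelial cell.

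**Figure D1:**
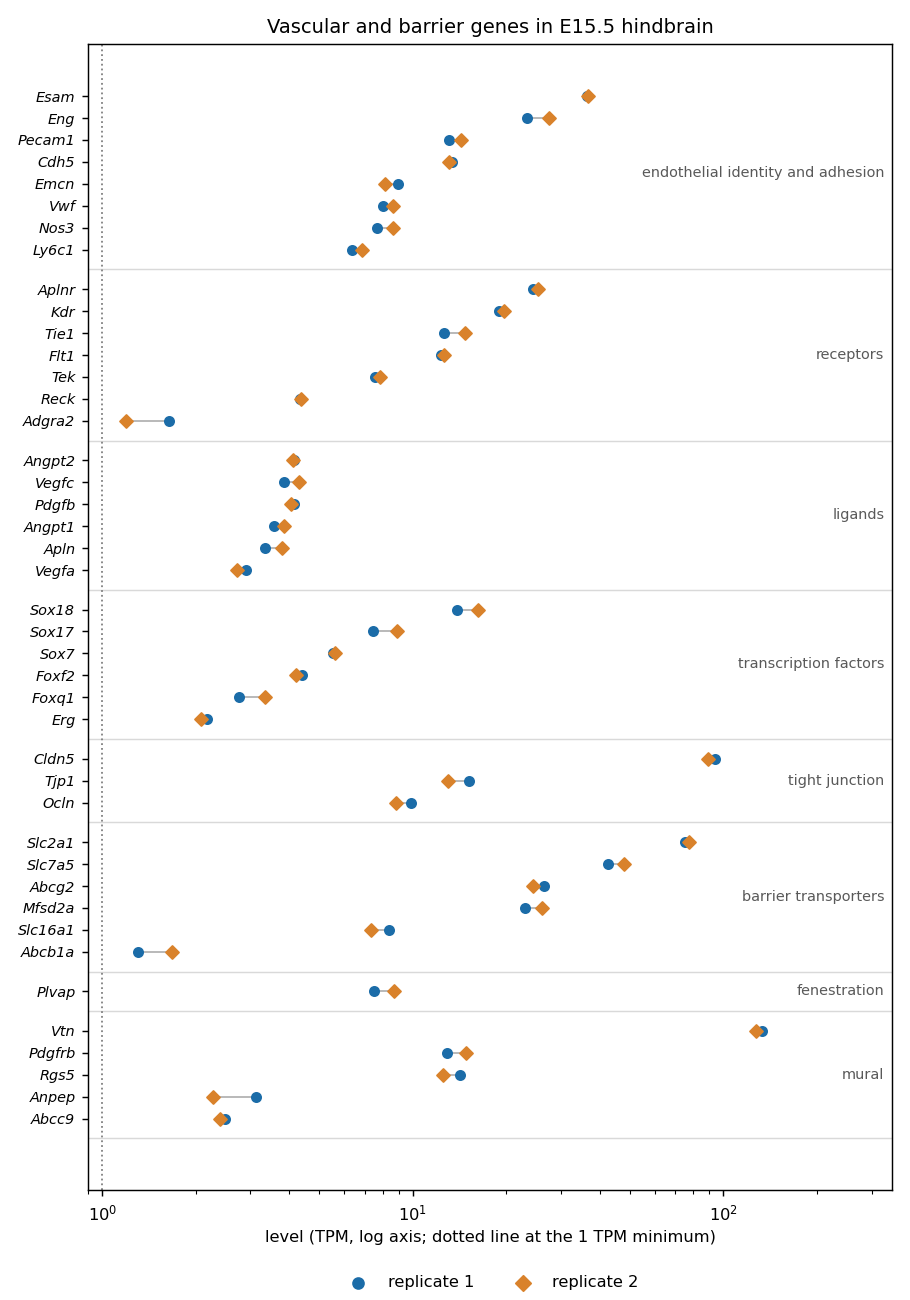
Level of each of the 42 members in TPM on a log axis, with circles for replicate 1 and diamonds for replicate 2, grouped by role. Vtn, Cldn5 and Slc2a1 stand highest, Adgra2 and Abcb1a lowest, and most pairs of points nearly coincide.

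Neighbouring cell types were checked first, because several members are used by other cells too. Hoxa2, a hindbrain patterning gene, had 18.6 TPM in replicate 1, with 22.3 TPM in replicate 2. A hindbrain gene cannot show whether neighbouring brain regions were included in the dissection, and that was not tested. Choroid plexus epithelium was present: 7 of its 8 listed genes were detected, led by the thyroid hormone carrier Ttr, Enpp2 and Folr1, and their summed level was 1017 TPM in replicate 1, compared with 1358 TPM in replicate 2. All 9 genes of meningeal fibroblasts, led by Col3a1, Igf2 and Col1a2, were detected, with sums of 765 TPM in replicate 1 against 617 TPM in replicate 2. Red cell genes, led by Hba-a2, Hbb-bs and Hba-a1, summed to 15776 TPM in replicate 1, with 12390 TPM in replicate 2. None of these 3 lists has a defining marker at 0, and their part in the levels of members that choroid plexus, meninges or red cells also express was not tested.

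Genes that define endothelial cells were all present. Esam, an adhesion molecule of endothelial junctions, was the highest of the 8 genes of endothelial identity and adhesion, at 36.4 TPM in replicate 1, compared with 36.6 TPM in replicate 2. Eng, a co-receptor for TGF-beta family ligands, had 23.4 TPM in replicate 1 against 27.3 TPM in replicate 2. The next 2 genes, the adhesion molecules of all endothelium, lay close together. Pecam1 had 13.1 TPM in replicate 1, with 14.2 TPM in replicate 2. Cdh5, which encodes VE-cadherin on chromosome 8 (GRCm38, 104101625 to 104144511, plus strand), had 13.4 TPM in replicate 1, compared with 13.1 TPM in replicate 2. Its mean was 13.26 ± 0.198 TPM (SD, n = 2), and it serves as the yardstick for endothelial RNA in the mural ratios.

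The remaining 4 genes of this role lay between 6 and 9 TPM. Emcn, a sialomucin found mostly on veins and capillaries, had 8.96 TPM in replicate 1 against 8.16 TPM in replicate 2. Vwf, the clotting factor stored by endothelium, had 8.04 TPM in replicate 1, with 8.62 TPM in replicate 2. Nos3, the endothelial nitric oxide synthase, had 7.65 TPM in replicate 1, compared with 8.66 TPM in replicate 2. The levels of these 3 genes overlapped between the pools.

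Ly6c1 was the lowest of the role by total TPM, at 6.38 TPM in replicate 1 against 6.84 TPM in replicate 2, while Vwf was lower by coding transcripts alone. It encodes a membrane-anchored surface protein that marks brain endothelium in mice, and its neighbour on chromosome 15, Ly6c2, is known from monocytes. The coding sequences of the 2 genes were identical at 384 of 393 bases (97.7%), so reads can be split between them and the level of Ly6c1 is uncertain. Ly6c2 was estimated at 0.96 TPM in replicate 1, with 0.32 TPM in replicate 2. The first 150 coding bases of each, from GENCODE M21 transcripts on GRCm38, show how few positions tell them apart, with the 6 mismatches in capitals. Ly6c1 lies on the minus strand, with its coding span at chr15:75045405-75048511, and Ly6c2 on the minus strand at chr15:75108546-75111667.
Ly6c1: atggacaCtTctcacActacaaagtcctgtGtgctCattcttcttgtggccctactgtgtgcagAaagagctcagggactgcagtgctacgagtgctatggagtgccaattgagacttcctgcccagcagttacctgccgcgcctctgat
Ly6c2: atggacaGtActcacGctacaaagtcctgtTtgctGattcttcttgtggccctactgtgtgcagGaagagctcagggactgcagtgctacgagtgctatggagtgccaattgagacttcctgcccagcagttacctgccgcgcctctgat

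All of 16 further pan-endothelial genes passed detection, against 63.1% of nuclear protein-coding genes. Their median was 10.115 TPM in a range of 1.005 to 79.0 TPM. Ramp2, part of the adrenomedullin receptor, led at 79.5 TPM in replicate 1, compared with 78.5 TPM in replicate 2, followed by Egfl7 and Lmo2. Of 9 arterial genes 7 were detected (led by Hey1, Gja4 and Efnb2), and all 4 venous genes were detected (led by Nr2f2, Nrp2 and Ackr1). All 4 lymphatic genes were also detected, led by Pdpn, Prox1 and Lyve1, each of which is also made outside lymphatic vessels. The lowest pan-endothelial gene, Gpihbp1, had 1.00 TPM in replicate 1, with 1.01 TPM in replicate 2. It had 14 counts in replicate 1 and 20 counts in replicate 2, so its detection rests on the 1 TPM minimum.

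Among receptors, Aplnr was highest. This receptor for apelin, known from sprouting and venous endothelium, had 24.3 TPM in replicate 1 against 25.4 TPM in replicate 2. Kdr, the main signalling receptor for VEGF-A (VEGFR2), had 18.9 TPM in replicate 1, with 19.7 TPM in replicate 2. Flt1 (VEGFR1), which binds VEGF-A more tightly than Kdr and holds it away, had 12.3 TPM in replicate 1, compared with 12.6 TPM in replicate 2. The TPM ratio of Kdr over Flt1 was 1.53 in replicate 1 and 1.56 in replicate 2. The angiopoietin receptor Tek (Tie2) had 7.53 TPM in replicate 1 against 7.83 TPM in replicate 2. Its co-receptor Tie1 had 12.6 TPM in replicate 1, with 14.7 TPM in replicate 2, so Tek stood at 0.596 of Tie1 in replicate 1 and 0.533 in replicate 2.

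The 2 receptors that make endothelial cells sensitive to Wnt7 ligands were the lowest of the role. Reck, a membrane-anchored protein that binds Wnt7a and Wnt7b and is also made outside vessels, had 4.34 TPM in replicate 1, compared with 4.38 TPM in replicate 2. Adgra2, the adhesion receptor that works with Reck, had 1.64 TPM in replicate 1 against 1.19 TPM in replicate 2. By scaled counts this was the widest difference between pools of any member, while Anpep differed most with TPM at pseudocounts of 1 and 0.1. The gene spans of Adgra2 and Brf2, introns included, share 73 bases on opposite strands, and exon overlap was not checked. Brf2 had 15.5 TPM in replicate 1, with 16.4 TPM in replicate 2. Whether counting used the strand is not given in the sources used here, so reads in that overlap cannot be assigned with certainty.

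Of 14 further genes listed for Wnt signalling to brain endothelium, 14 passed detection in the whole tissue, against 63.1% of nuclear protein-coding genes. Their median was 8.53 TPM, and in which cells they are made was not tested. The lowest were Fzd4, at a mean of 1.77 TPM, and Lrp5, at 1.14 TPM, both near the 1 TPM minimum. Ctnnb1, which encodes beta-catenin, led the list, followed by Tnfrsf21 and Tspan12, a co-receptor for Norrin. The ligand Wnt7b, which is not a member, had 21.1 TPM in replicate 1, compared with 31.8 TPM in replicate 2. Wnt7a, also no member, had 8.73 TPM in replicate 1 against 8.02 TPM in replicate 2, so both ligands stood above Reck and Adgra2 in both pools. Of the list, 7 genes were higher in replicate 1 and 7 in replicate 2, with a median log2 ratio of -0.035. Lef1 and Fgfbp1, both known as Wnt-responsive genes, were past 1.5-fold higher in replicate 1, as were 4.29% of all genes compared. Axin2 and Apcdd1 of the same list had log2 ratios of -0.15 and -0.10, with counting intervals that included equality. Lef1 had 13.6 TPM in replicate 1, with 8.86 TPM in replicate 2, and Fgfbp1 had 10.2 TPM in replicate 1, compared with 6.9 TPM in replicate 2.

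Ligands formed the lowest role, with a median of 3.90 TPM over 6 genes and a range of 2.81 to 4.12 TPM. Vegfa, the main growth factor that draws vessels into neural tissue, had 2.90 TPM in replicate 1 against 2.72 TPM in replicate 2. Vegfc, best known from lymphatic growth and also active on brain vessels, had 3.86 TPM in replicate 1, with 4.31 TPM in replicate 2. By deposited TPM, Vegfc was higher than Vegfa in both pools, by 1.33 in replicate 1 and 1.58 in replicate 2 as a ratio. Vegfa lay below its own deposited interval in both pools, and that interval overlapped the one of Vegfc. Posterior mean TPM, an alternative estimate in the files, was 3.63 for Vegfa against 3.80 for Vegfc in replicate 1. For replicate 2 it was 3.44 against 4.24. The order thus held by both estimates, but the 2 genes were not told apart beyond the deposited intervals. Angpt1, the ligand that activates Tek, had 3.57 TPM in replicate 1, compared with 3.86 TPM in replicate 2. Angpt2, its context-dependent antagonist made by sprouting endothelium, had 4.13 TPM in replicate 1 against 4.11 TPM in replicate 2. The TPM ratio of Angpt1 over Angpt2 was 0.864 in replicate 1 and 0.939 in replicate 2. Coding transcripts of Angpt2 alone held 3.80 TPM in replicate 1 and 3.30 TPM in replicate 2. Against these, Angpt1 was lower in replicate 1 and higher in replicate 2. The span of Angpt2, introns included, lies wholly inside that of Mcph1, a gene of the opposite strand. Mcph1 had 7.97 TPM in replicate 1, with 8.34 TPM in replicate 2. Exon overlap was not checked, so the level of Angpt2 may be uncertain without strand.

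Apln, the apelin ligand made by tip cells, had 3.33 TPM in replicate 1, compared with 3.80 TPM in replicate 2. Its receptor Aplnr stood 7.29 times higher in replicate 1 and 6.68 times higher in replicate 2. Pdgfb, the endothelial signal that recruits pericytes, had 4.13 TPM in replicate 1 against 4.04 TPM in replicate 2. Its receptor Pdgfrb stood 3.12 times higher in replicate 1 and 3.67 times higher in replicate 2. In both of these ligand and receptor pairs the receptor RNA was the more abundant, in both pools.

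Vegfa is made as isoforms that differ in how they bind the extracellular matrix. A 132-base coding exon and a 72-base coding exon carry the basic stretches that bind heparan sulfate, and the short diffusible form (Vegfa120 in mouse) lacks both. Vegfa has only 206 counts in replicate 1 and 210 counts in replicate 2, spread over 11 annotated transcripts. The transcript Vegfa-211, which lacks both exons, held 70.3% of the gene's TPM in replicate 1 and 46.0% in replicate 2. Vegfa-201, which lacks both as well, held 9.31% in replicate 1 and 27.6% in replicate 2, so these forms moved in opposite directions. Vegfa-202, which has the 132-base exon, held 2.76% in replicate 1 and 16.2% in replicate 2. Among coding transcripts that span it, the 132-base exon was included in 3.35% of TPM in replicate 1 and 19.0% in replicate 2. With posterior mean TPM, an alternative estimate in the files, the same inclusion was 29.6% in replicate 1 and 28.0% in replicate 2. The estimates thus lay further apart in replicate 1 than in replicate 2, and the inclusion of this exon was not settled at this depth. The exons, shown as the part that tells the isoforms apart, lie on the minus strand of GRCm38 at chr17:46022277-46022348 and chr17:46020991-46021122.
72-base exon: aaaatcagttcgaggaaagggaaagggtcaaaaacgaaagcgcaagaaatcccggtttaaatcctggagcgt
132-base exon: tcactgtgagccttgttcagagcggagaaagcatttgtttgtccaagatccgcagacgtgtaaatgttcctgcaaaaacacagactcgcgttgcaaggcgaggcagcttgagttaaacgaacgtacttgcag

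Flt1 was divided between a membrane receptor, a soluble decoy and a noncoding transcript. The soluble form (sFlt1) ends early because its transcript reads past a splice site into an intron, and it traps VEGF-A outside the cell. Flt1-202, which encodes the full receptor with 3999 coding bases, had 3.25 TPM in replicate 1, with 3.50 TPM in replicate 2. Flt1-203, which encodes the soluble form with 2064 coding bases, had 2.60 TPM in replicate 1, compared with 3.06 TPM in replicate 2. Of the TPM in these 2 coding forms, the soluble form held 44.4% in replicate 1 and 46.6% in replicate 2, a mean of 45.5 ± 1.56% (SD, n = 2). The posterior mean TPM gave 44.6% in replicate 1 and 46.7% in replicate 2. The largest share of the gene belonged to Flt1-201, a processed transcript of 2049 nt with no coding sequence, at 51.2% in replicate 1 and 46.9% in replicate 2. With coding transcripts alone, Kdr stood at 3.20 times Flt1 in replicate 1 and 2.99 times in replicate 2. The stretch that marks the soluble form lies on the minus strand of GRCm38 at chr5:147639133-147639254. Lower case marks the last 30 bases of the exon that both forms share, and capitals mark the bases that only the soluble form codes for, read from the intron.
soluble Flt1 tail: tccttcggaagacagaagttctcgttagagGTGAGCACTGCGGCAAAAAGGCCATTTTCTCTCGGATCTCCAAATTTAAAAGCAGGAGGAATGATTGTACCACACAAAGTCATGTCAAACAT

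Among transcription factors, the SOXF group that specifies endothelium was ordered alike in both pools. Sox18 had 13.9 TPM in replicate 1 against 16.2 TPM in replicate 2. Sox17, known from arteries and from Wnt-dependent brain vessels, had 7.46 TPM in replicate 1, with 8.90 TPM in replicate 2. Sox7 had 5.53 TPM in replicate 1, compared with 5.63 TPM in replicate 2. The TPM ratio of Sox18 over Sox17 was 1.87 in replicate 1 and 1.82 in replicate 2, and no value of these 3 genes overlapped that of another. Erg, an ETS factor that maintains junctions and VE-cadherin, had 2.18 TPM in replicate 1 against 2.08 TPM in replicate 2, on 110 counts in replicate 1 and 100 counts in replicate 2.

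The forkhead members mark both sides of the capillary wall. Foxf2, a factor of brain pericytes, had 4.4 TPM in replicate 1, with 4.19 TPM in replicate 2. Foxq1, a factor of brain endothelium, had 2.75 TPM in replicate 1, compared with 3.33 TPM in replicate 2. The 2 genes lie side by side on chromosome 13 with 64839 bases between them, the closest pair among the members. In GENCODE M21 the gene spans of Foxq1 and A530084C06Rik, a coding gene of the opposite strand, share 3200 bases. A530084C06Rik had 0.24 TPM in replicate 1 against 0.19 TPM in replicate 2. The Foxq1 transcript that was counted has 2653 nt, against 4843 nt in GENCODE M21.

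Tight junction genes were led by Cldn5, the claudin that seals brain endothelium against small molecules. Cldn5, on chromosome 16 (GRCm38, 18776847 to 18778262, plus strand), had 93.9 TPM in replicate 1, with 89.2 TPM in replicate 2, a mean of 91.6 ± 3.33 TPM (SD, n = 2), at or above 91.6% of nuclear protein-coding genes. It stood 7.01 times above Cdh5 in replicate 1 and 6.80 times in replicate 2. Ocln, occludin, had 9.86 TPM in replicate 1, compared with 8.81 TPM in replicate 2. Tjp1, which encodes the scaffold ZO-1 that neural progenitors also use, had 15.1 TPM in replicate 1 against 13.0 TPM in replicate 2. For Ocln the direction between pools depended on the scale: its TPM was higher in replicate 1, while its scaled count was 0.10 lower on the log2 scale in replicate 1. All 14 further junction genes passed detection, and Jam3, Lsr and Jam2 led them (list median 8.03 TPM). Lsr, the tricellular protein angulin-1, had 19.3 TPM in replicate 1, with 19.6 TPM in replicate 2.

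Tjp1 was carried mainly by the form with the alpha domain. ZO-1 exists with and without an alpha domain encoded by a 240-base exon, and the form without it is known from endothelium, the form with it from most epithelia. Tjp1-202, which has the exon, had 9.10 TPM in replicate 1, compared with 8.59 TPM in replicate 2. Tjp1-201, which lacks it, had 2.23 TPM in replicate 1 against 2.63 TPM in replicate 2. Of the TPM in these 2 coding forms the exon was included in 80.3% in replicate 1 and 76.6% in replicate 2. A noncoding transcript of 699 nt, Tjp1-203, held a further 25.1% of the gene's TPM in replicate 1 and 13.6% in replicate 2. The exon lies on the minus strand of GRCm38 at chr7:65314093-65314332 and is shown because its presence separates the 2 forms.
alpha exon of Tjp1: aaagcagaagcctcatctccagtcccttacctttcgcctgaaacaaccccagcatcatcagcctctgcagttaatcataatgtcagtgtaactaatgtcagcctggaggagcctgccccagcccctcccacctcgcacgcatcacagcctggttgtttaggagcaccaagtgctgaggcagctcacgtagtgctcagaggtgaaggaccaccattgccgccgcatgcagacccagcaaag

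Barrier transporters spanned the range from the highest members to nearly the lowest. Slc2a1, the glucose carrier GLUT1 on chromosome 4 (GRCm38, 119108711 to 119137983, plus strand), had 75.4 TPM in replicate 1, with 77.3 TPM in replicate 2. Slc7a5, the large neutral amino acid carrier LAT1, had 42.4 TPM in replicate 1, compared with 47.8 TPM in replicate 2. Both carriers also serve other cells, GLUT1 red cells and LAT1 dividing cells. Slc3a2, the heavy chain that LAT1 needs, was 1.87 times Slc7a5 in replicate 1 and 1.75 times in replicate 2. Slc7a5 lies within Gm20388, a coding gene of the opposite strand at 6.46 TPM in replicate 1 against 6.47 TPM in replicate 2.

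Abcg2, the efflux pump BCRP, had 26.5 TPM in replicate 1, with 24.4 TPM in replicate 2. Mfsd2a, the lysophospholipid carrier that keeps transcytosis low, lies on chromosome 4 (GRCm38, 122946850 to 122961188, minus strand). It had 23.0 TPM in replicate 1, compared with 26.04 TPM in replicate 2, a mean of 24.5 ± 2.17 TPM (SD, n = 2). Slc16a1, the lactate and ketone carrier MCT1, had 8.38 TPM in replicate 1 against 7.32 TPM in replicate 2. The values of Abcg2 and Mfsd2a overlapped between pools, and both stood above Slc16a1 in both pools.

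Abcb1a, the P-glycoprotein of adult brain capillaries, was the lowest transporter at 1.30 TPM in replicate 1, with 1.68 TPM in replicate 2. Its deposited interval ran from 1.14 to 5.17 TPM in replicate 1 and from 1.49 to 5.38 TPM in replicate 2. The coding transcript Abcb1a-201 held 0.72 TPM in replicate 1, compared with 0.81 TPM in replicate 2, and a retained-intron transcript, Abcb1a-202, held 0.57 TPM in replicate 1 against 0.87 TPM in replicate 2. Counted by coding transcripts alone, Abcb1a was under 1 TPM in both pools, the one member of which this was true. Its relative Abcb1b, 88.2% identical over aligned coding bases, had 0.20 TPM in replicate 1, with 0.23 TPM in replicate 2. All 13 further barrier transporters passed detection (list median 28.1 TPM), and the highest, Slc3a2, Slc6a6 and Insr, are made by many cell types. Slco1c1, a thyroid hormone carrier of barrier and choroid plexus, had 11.7 TPM in replicate 1, compared with 14.2 TPM in replicate 2. Slco1a4, an organic anion carrier known from brain endothelium, had 2.36 TPM in replicate 1 against 3.10 TPM in replicate 2.

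Plvap, the protein of fenestrae and caveolar diaphragms and the marker of leaky or immature vessels, lies on chromosome 8 (GRCm38, 71497765 to 71511752, minus strand). It had 7.52 TPM in replicate 1, with 8.67 TPM in replicate 2, a mean of 8.10 ± 0.813 TPM (SD, n = 2), on 373 counts in replicate 1 and 454 counts in replicate 2. Relative to Cdh5 it stood at 0.561 in replicate 1 and 0.661 in replicate 2. The gene spans of Plvap and Gtpbp3, introns included, share 1819 bases on opposite strands. Gtpbp3 had 12.2 TPM in replicate 1, compared with 9.67 TPM in replicate 2. Exon overlap was not checked, so part of the Plvap signal may be uncertain without strand. All 5 caveolar coat genes were detected, led by Cavin3, Cavin1 and Cav1, the last at 28.3 TPM in replicate 1 against 27.0 TPM in replicate 2.

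Barrier maturity was read as the level of barrier genes over Plvap within each library. Mfsd2a stood 3.05 times above Plvap in replicate 1 and 3.003 times in replicate 2, a mean log2 ratio of 1.60 ± 0.017 (SD, n = 2). The median of the 6 transporters, 24.7 TPM in replicate 1, with 25.2 TPM in replicate 2, was 3.29 times Plvap in replicate 1 and 2.91 times in replicate 2. Cldn5 was 12.5 times Plvap in replicate 1 and 10.3 times in replicate 2. Of the 6 transporters, 4 were above Plvap in both pools, while Plvap itself was at or above only 54.3% of nuclear protein-coding genes. Slc2a1 stood at 10.0 and Slc7a5 at 5.63 times Plvap in replicate 1, and at 8.92 and 5.51 times in replicate 2. Slc16a1 lay on either side of Plvap, at 1.11 in replicate 1 and 0.844 in replicate 2. Abcb1a was below it, at 0.173 in replicate 1 and 0.194 in replicate 2. With coding transcripts alone Abcb1a stood at 0.096 of Plvap in replicate 1 and 0.093 in replicate 2. The transporter median was then 3.02 times Plvap in replicate 1 and 2.70 times in replicate 2.

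These ratios compare RNA of the whole tissue, in which Plvap can come from choroid plexus and surface vessels and the carriers from cells outside vessels. The summed choroid plexus epithelium genes, given above, were higher in replicate 2, as was Plvap by TPM, and their part in the ratios was not tested. Most of that sum was Ttr, at 868 TPM in replicate 1, with 1183 TPM in replicate 2. Otx2, a transcription factor of the same list, went the other way, at 28.1 TPM in replicate 1 against 17.2 TPM in replicate 2 (log2 ratio 0.84, counting interval 0.71 to 0.96), while the other 7 genes were higher in replicate 2.

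**Figure D2:**
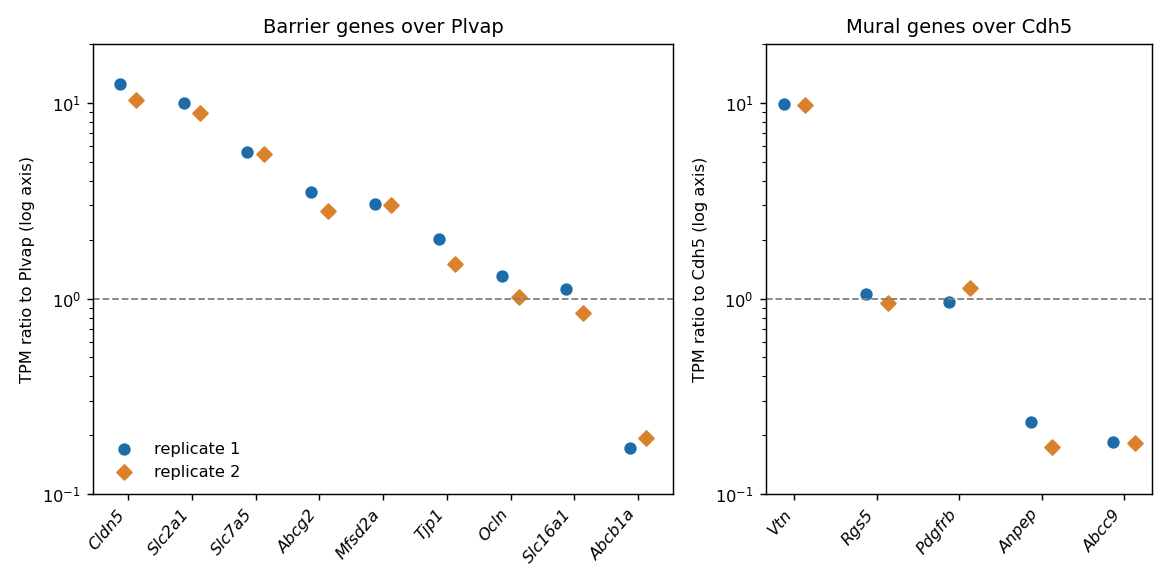
TPM ratio of 9 barrier genes over Plvap (left) and of 5 mural genes over Cdh5 (right) on log axes, with circles for replicate 1 and diamonds for replicate 2 and a dashed line at equal level. Cldn5 over Plvap lies at 12.5 in replicate 1 and 10.3 in replicate 2, Abcb1a at 0.173 in replicate 1 and 0.194 in replicate 2, and Pdgfrb and Rgs5 lie at about the level of Cdh5.

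Mural cells were represented by 5 members. Vtn, which encodes vitronectin and is made by brain pericytes, was the highest of all members, at 132.9 TPM in replicate 1, compared with 127.4 TPM in replicate 2 (SD 3.92, n = 2). Its RNA included a retained-intron transcript, Vtn-204, with 19.6% of the gene's TPM in replicate 1 and 17.2% in replicate 2. Pdgfrb, the PDGF-B receptor of pericytes, had 12.9 TPM in replicate 1 against 14.8 TPM in replicate 2. Rgs5, a G-protein regulator of pericytes, had 14.2 TPM in replicate 1, with 12.5 TPM in replicate 2. Pdgfrb over Cdh5 was 0.962 in replicate 1 and 1.13 in replicate 2, and Rgs5 over Cdh5 was 1.06 in replicate 1 and 0.950 in replicate 2. Neither pericyte gene was on the same side of Cdh5 in both pools, so their levels were not told apart from it. Vtn over Cdh5 was 9.92 in replicate 1 and 9.71 in replicate 2.

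The other mural members were low. Abcc9, a subunit of the ATP-sensitive potassium channel of pericytes, had 2.49 TPM in replicate 1, compared with 2.39 TPM in replicate 2. Anpep, aminopeptidase N (CD13), known from pericytes and also from meningeal cells, had 3.13 TPM in replicate 1 against 2.28 TPM in replicate 2. By scaled counts the log2 ratio of Anpep was 0.19, with a counting interval of -0.08 to 0.46 that included equality. A noncoding transcript of 178 nt, Anpep-203, held 0.49 TPM on 1 count in replicate 1 and 0 TPM in replicate 2. With coding transcripts alone Anpep had 2.64 TPM in replicate 1, with 2.28 TPM in replicate 2. All 9 meningeal fibroblast genes were higher in replicate 1 and all their counting intervals excluded equality, and their part in the level of Anpep was not tested. All 10 further pericyte genes passed detection (list median 8.67 TPM), and Cd248, Ndufa4l2 and Kcnj8 were the highest. Kcnj8, the channel partner of Abcc9, had 11.1 TPM in replicate 1, with 12.2 TPM in replicate 2. Of 5 genes of contractile smooth muscle only Acta2 and Tagln were detected. The highest not detected was Des, with 1.37 TPM in replicate 1, compared with 0.85 TPM in replicate 2, and Myh11, a marker of mature smooth muscle, had 0.76 TPM in replicate 1 against 0.63 TPM in replicate 2.

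By deposited TPM, all Abcc9 RNA was assigned to the SUR2B form. Abcc9 ends in either of 2 last coding exons of 135 bases, which give the subunits SUR2A, known from heart and skeletal muscle, and SUR2B, known from smooth muscle and other tissues. Abcc9-203, which ends in the SUR2B exon, held 100% of the gene's TPM in both replicates. The posterior mean TPM gave the SUR2A exon 16.7% in replicate 1 and 13.6% in replicate 2 among transcripts that span it. The 2 exons are identical at 69 of 135 bases (51.1%), and capitals mark where they differ. On the minus strand of GRCm38 the SUR2B exon lies at chr6:142590369-142590503 and the SUR2A exon at chr6:142594008-142594142.
SUR2B exon: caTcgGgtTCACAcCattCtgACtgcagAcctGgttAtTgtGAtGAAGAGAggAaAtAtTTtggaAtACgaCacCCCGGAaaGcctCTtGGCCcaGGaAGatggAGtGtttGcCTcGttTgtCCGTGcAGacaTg
SUR2A exon: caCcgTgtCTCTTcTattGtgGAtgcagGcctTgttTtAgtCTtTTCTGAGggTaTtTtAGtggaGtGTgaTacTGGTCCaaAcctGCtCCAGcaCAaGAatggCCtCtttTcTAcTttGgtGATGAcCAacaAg

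Transcript shares were then compared across members. Of the 42 members 12 have a single annotated transcript in the files, among them Cldn5, Plvap and Cdh5. Another 22 have several transcripts and 5 TPM or more in both libraries, and their leading transcript, that of highest mean TPM, held a median of 84.9% of the gene's TPM. Over the 8396 genes that meet the same conditions the median was 67.5%. In 9 of the 22 the leading transcript held 90% or more, with Nos3, Slc2a1 and Pdgfrb at 100% in both pools. In 6 of the 22 it held under 50%, which is 27.3% of them, near the 25.8% of all genes compared.

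The 6 genes with divided transcripts were Sox17, Ocln, Vwf, Abcg2, Flt1 and Eng. Sox17 was divided most: in replicate 1 Sox17-201 and Sox17-204 each held 23.1%, while Sox17-202 led in replicate 2 with 36.3%. Ocln-202 held 36.0% in replicate 1 and 42.8% in replicate 2. Eng-201 held 49.9% in replicate 1 and 49.8% in replicate 2. The leading transcript of Abcg2 also changed between pools, with Abcg2-202 at 42.2% in replicate 1 and 39.3% in replicate 2, and Abcg2-201 at 32.3% in replicate 1 and 40.8% in replicate 2. Both of these Abcg2 transcripts carry 1971 coding bases. Among members under 5 TPM, Erg-202 held a mean of 37.7%, and the leader differed between pools in Anpep and Abcb1a. For Anpep, Anpep-201 held 66.1% in replicate 1 and 36.0% in replicate 2, while Anpep-202 held 18.2% in replicate 1 and 64.0% in replicate 2, with 2898 coding bases in each.

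Short transcripts weighed heavily in some of these TPM values. Vwf-203, the full coding transcript, held 726 of 898 counts of Vwf in replicate 1 and 850 of 1026 counts in replicate 2. It nevertheless held only 39.9% of the gene's TPM in replicate 1 and 41.3% in replicate 2. Vwf-209, a noncoding transcript of 456 nt, held 22.7 counts in replicate 1 and 28.4 counts in replicate 2, and 30.6% of TPM in replicate 1 and 33.8% in replicate 2.

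Pecam1, which was picked out after its values were seen, showed a further coding difference. A 57-base exon on chromosome 11 that codes for part of the cytoplasmic tail was included in 43.9% of coding TPM in replicate 1 and 45.1% in replicate 2. The leading transcript, Pecam1-203, skips it and held 51.6% of the gene's TPM in replicate 1 and 53.6% in replicate 2. Other parts of Pecam1 were less alike between pools: a 23-base exon was included in 29.5% of coding TPM in replicate 1 and 9.64% in replicate 2, and Pecam1-202 held 13.3% of the gene's TPM in replicate 1 and 34.6% in replicate 2.

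**Figure D3:**
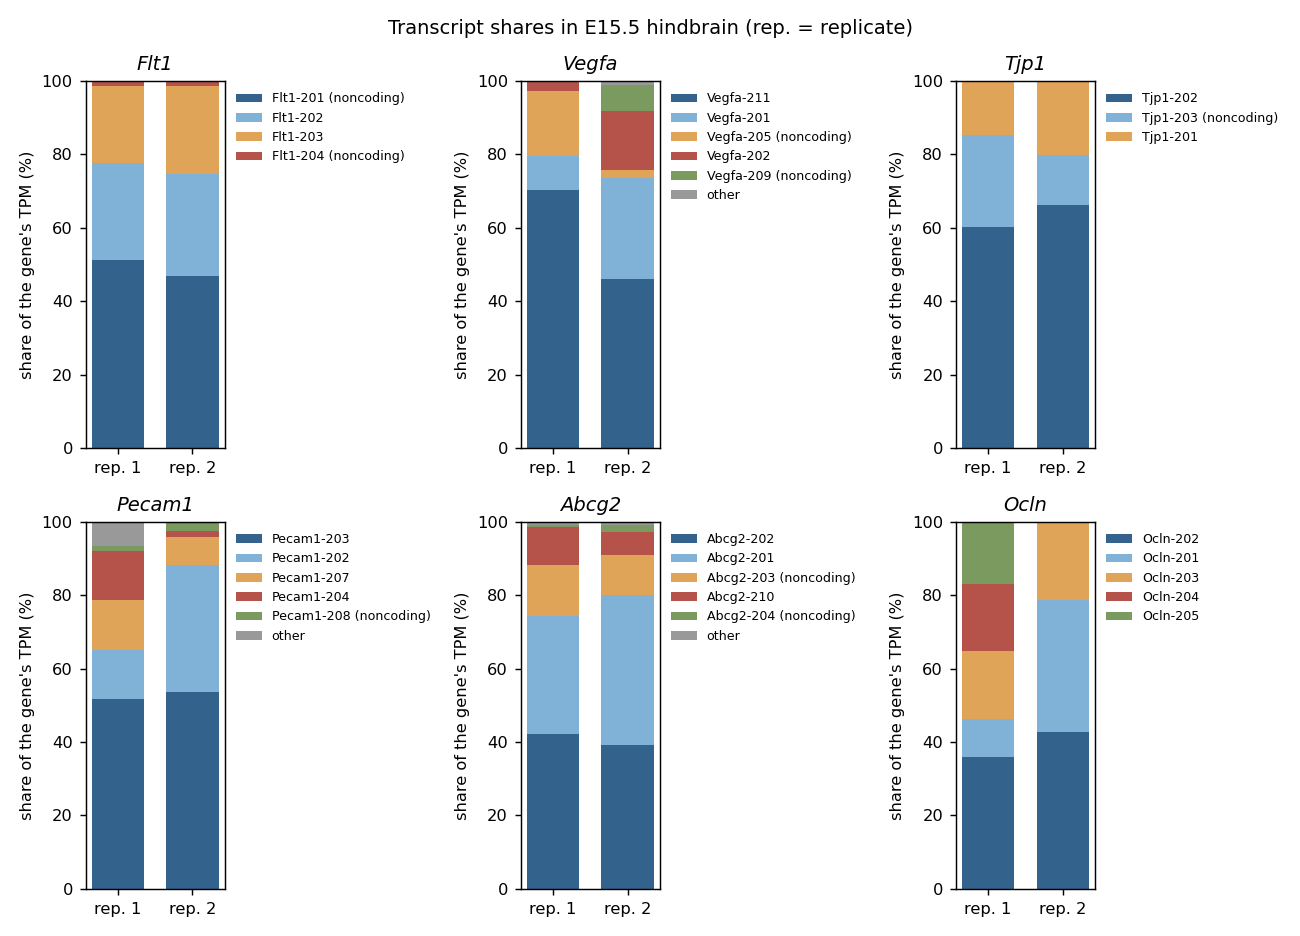
Share of the gene's TPM held by each transcript in Flt1, Vegfa, Tjp1, Pecam1, Abcg2 and Ocln, with 1 bar per replicate. Flt1 has like shares in both pools, while Vegfa-211 holds 70.3% in replicate 1 and 46.0% in replicate 2, and Vegfa-201 holds 9.31% in replicate 1 and 27.6% in replicate 2.

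The pools were compared by the log2 ratio of scaled counts, replicate 1 over replicate 2, with 95% exact Clopper-Pearson intervals for counting error. The files carry no molecular identifiers, so these intervals cover counting error only, and with 1 library per pool no test was possible. No member was past 1.5-fold with replicate 1 higher, against 4.29% of the 17048 genes compared, and none with replicate 2 higher, against 2.21%. The median member ratio was -0.013, with a range of -0.27 to 0.51. The median size of the log2 ratio, sign set aside, was 0.111 for the members and 0.111 for all genes compared. Replicate 1 was higher in 19 of the 42 members (45.2%), near the 50.3% of all genes. This count rests on the scale: it was 28 of 42 with spike-in totals and 17 of 42 with TPM.

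The interval excluded equality in 5 members with replicate 1 higher (11.9%, against 19.1% of all genes) and in 8 with replicate 2 higher (19.0%, against 18.9%). The 5 were Adgra2, Slc16a1, Rgs5, Cldn5 and Vtn. Adgra2 had a log2 ratio of 0.51 (0.22 to 0.80) on 234 counts in replicate 1 and 178 counts in replicate 2. The 8 were Eng, Sox18, Tie1, Pdgfrb, Pecam1, Mfsd2a, Slc7a5 and Nos3, with log2 ratios between -0.20 and -0.14. Among the 5 mural members, Rgs5 and Vtn were thus higher in replicate 1 and Pdgfrb in replicate 2 beyond counting error, so the pools did not differ in one direction for mural genes.

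**Figure D4:**
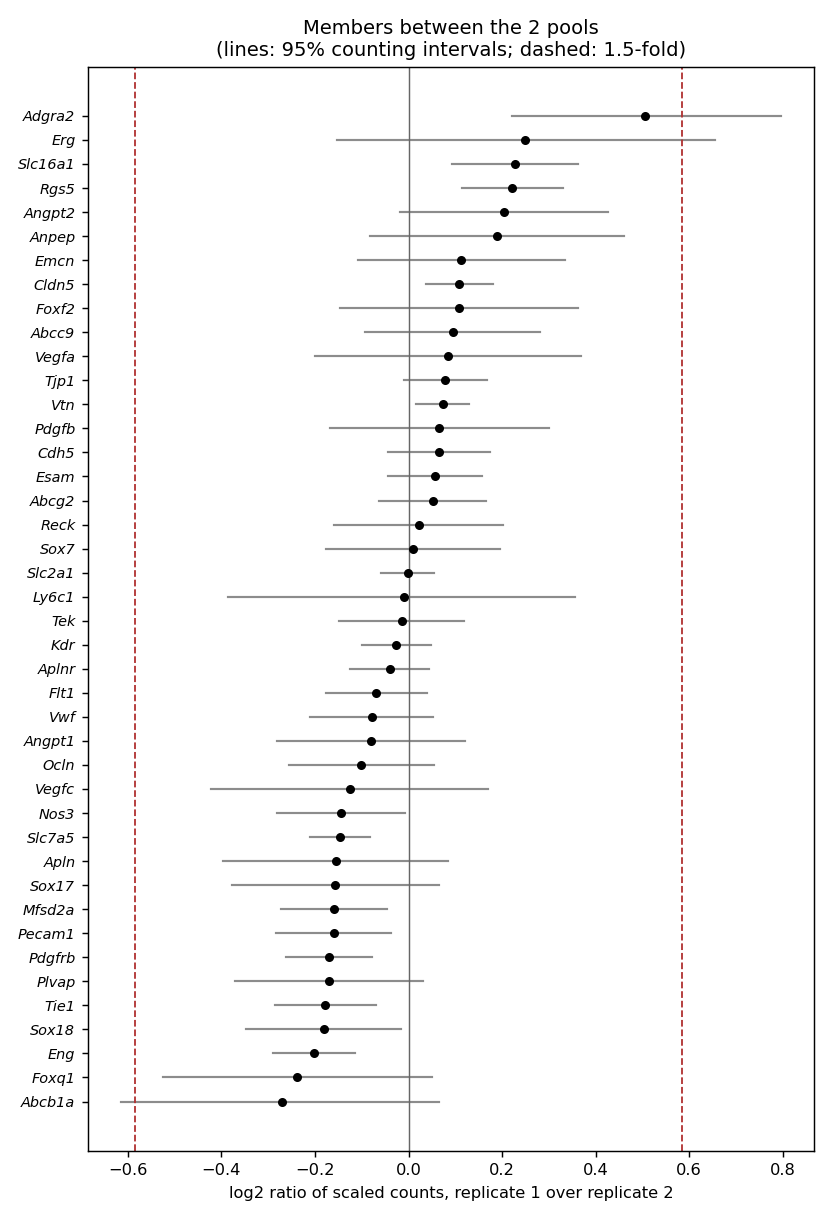
Log2 ratio of scaled counts, replicate 1 over replicate 2, for the 42 members, with 95% counting intervals as lines and dashed lines at 1.5-fold. All points lie inside the dashed lines, with Adgra2 at 0.51 and Abcb1a at -0.27 at the ends.

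Several lists of other cell types had larger median differences between the pools than the vascular members did. The median log2 ratio was 0.35 for the meningeal fibroblast list, 0.33 for the red cell list and -0.35 for the choroid plexus epithelium list. It was -0.03 for the further pan-endothelial genes, where Robo4, an endothelial guidance receptor, was past 1.5-fold higher in replicate 2. It was -0.09 for the further pericyte genes and 0.11 for the caveolar coat genes. Smooth muscle genes had a median of 0.35, with 5 of 5 higher in replicate 1, against 50.3% of all genes compared. Of these 5 genes 2 were detected, and the counting interval excluded equality in 2. Acta2, the highest of them, had a log2 ratio of 0.11 with a counting interval of -0.04 to 0.26 that included equality. Microglial and macrophage genes, led by C1qb, Tyrobp and C1qa, had a median of 0.26, and radial glial genes, led by Fabp7, Slc1a3 and Gja1, had one of -0.02. All 7 microglial and all 5 radial glial genes were detected, so none of these lists had a gene at 0.

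**Figure D5:**
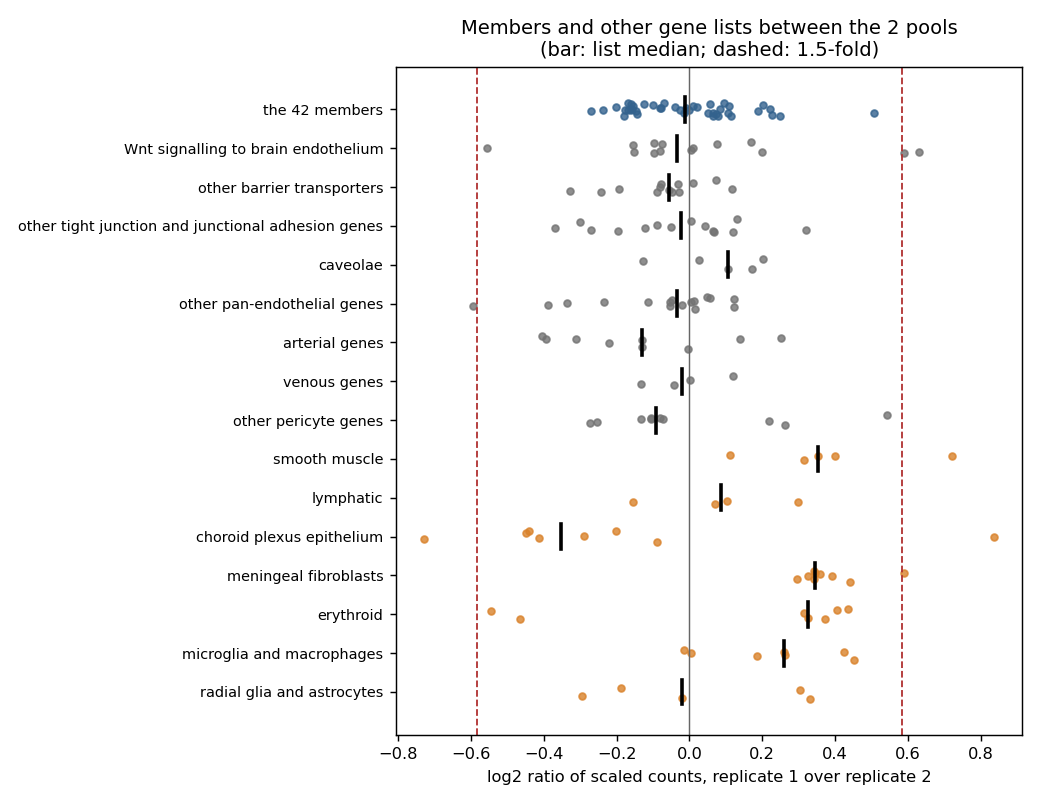
Log2 ratio of scaled counts, replicate 1 over replicate 2, for the 42 members (blue), related vascular lists (grey) and other cell types (orange), with a black bar at each list's median and dashed lines at 1.5-fold. The member median lies at -0.013, the meningeal fibroblast median at 0.35 and the choroid plexus median at -0.35.

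The promoters of the members were set beside those of all genes, using RefSeq windows on GRCm38 of 250 bases before to 50 after the start. Windows were matched for 25 of the 42 members, with 32 windows against 32851 in all. Some members, such as Abcg2 and Erg, have several windows, so the windows are not independent. The 32851 windows belong to 27025 genes and were not limited to protein-coding or detected genes. The median GC content was 60.5% in member windows and 52.7% in all windows. The ratio of observed to expected CpG was 0.541 in member windows and 0.384 in all windows. The letters AGGAAG, an ETS factor core, stood in 37.5% of member windows and 35.4% of all windows on either strand. ACAAAG and AACAAT, cores of SOX motifs, stood in 21.9% and 9.38% of member windows and in 18.7% and 10.7% of all windows. ATCAAAG, a core of TCF and LEF motifs that shares the letters CAAAG with ACAAAG, stood in 0 of 32 member windows and 3.73% of all windows. TATAAA stood in 21.9% of member windows and 13.6% of all windows. The windows of Cldn5 and Mfsd2a held none of these 5 letter strings, which says only that these letters are not in those windows.

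By whole gene spans in GENCODE M21, introns included, other annotated genes overlapped 19 of the 42 members. The overlap was on the opposite strand in 16 of them and with a coding gene there in 7. Exons were not compared. Besides Adgra2, Angpt2, Foxq1, Slc7a5 and Plvap, the 7 include Eng, which shares 61 bases with Fpgs, and Nos3, which shares 294 bases with Atg9b. The members lie on 17 chromosomes, with 6 on chromosome 8 and 5 on chromosome 4, where Tie1, Slc2a1 and Mfsd2a follow one another.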

How the data were processed

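Total RNA-seq of 2 hindbrain pools was analysed from the deposited gene and transcript tables. Per the submitters' processing notes, the authors used mm10 with GENCODE M4. Aligner, quantifier and strand setting: not given in the sources used here. Estimated counts, as the authors deposited them, are fractional assignments of reads to genes or transcripts, not normalized. Deposited TPM values were scaled with spike-ins included, and deposited FPKM values served as an alternative. Interval bounds and posterior values, which the file headers name, were read as a signal deposited by the authors. The deposited percent of a gene's TPM per transcript was not printed, since shares were computed from transcript TPM.

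GENCODE M21 (GRCm38, which is mm10) named 42462 of 43346 gene identifiers. Gene spans, exons and coding bases were also read from M21. Of the 157 member transcripts, 135 have the same length there as in the deposited data. The unnamed took 0.2% of counts in genes, and spike-ins took 2.86% of counts in replicate 1 against 3.09% in replicate 2. TMM scaling in edgeR 4.0.16 (R 4.3.3) used genes averaging at least 20 counts, and ratios had a prior count of 0.5. A ratio past 1.5-fold was called. The ratio script was tested on simulated data: with Poisson counts, 100% of 100 genes changed 2-fold passed 1.5-fold, and 1.45% of unchanged genes did. Real pools varied more than counting, at a chi-square per degree of freedom of 12.4. With 1 group of 2 libraries there was no test and no p-value. Sequences were read from GENCODE M21 transcripts and RefSeq promoter windows with Biopython 1.88.

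The labels call the libraries biological replicates, and SDs describe the spread of these 2 pools only. The members and all gene lists were chosen with earlier results of these data known. Named were all 42 members, the 3 highest genes of each other list, the highest gene not detected where under 75% of a list was detected, and genes with a leading transcript share under 50% or a leader that differed. Wnt7a, Wnt7b, Lef1, Fgfbp1, Axin2, Apcdd1, Fzd4, Lrp5, Robo4, Gpihbp1, Myh11, Slco1c1, Slco1a4, Hoxa2, Otx2 and the Pecam1 exons were named after their values were seen. Alternatives were other detection minimums, posterior mean TPM, TPM rescaled over nuclear protein-coding genes, pseudocounts, scaling by spike-in totals, library totals or DESeq2 1.42.0 size factors, and each library alone. TPM from protein-coding transcripts only was added after seeing the data. No protein sequence was used here.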

Additional observations from a re-analysis of the deposited data

How the results depend on the processing

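Of 61 alternative values 51 were labelled unchanged. The limit was the replicate SD for levels, log2 TPM ratios and shares, and 1.5 times for counts. For the median ratio between pools it was the counting interval of the summed members. Several alternatives could not move: leaving out 1 of 2 libraries always keeps a mean log2 TPM ratio within that SD. All members averaged 100 counts or more, so other count minimums repeated the main values. The 51 of 61 is therefore no measure of robustness. All 42 members stayed detected except 2 at a TPM minimum of 2 and at an FPKM minimum of 1 (40 detected in each) and 1 with coding transcripts only (41 detected). The median member was 10.5 TPM when rescaled over nuclear protein-coding genes, and it ranged from 8.21 to 8.665 TPM with 1 library left out. The log2 ratio of Mfsd2a over Plvap was 1.63 with posterior mean TPM and 1.49 with a pseudocount of 1 TPM, outside its narrow replicate SD of 0.017, with a range of 1.59 to 1.61 with 1 library left out. That of Pdgfrb over Cdh5 ranged from -0.056 to 0.178 with 1 library left out, so its sign rests on which pool is used. With spike-in totals as scale, 1 member (Adgra2, log2 ratio 0.62) was past 1.5-fold with replicate 1 higher, the median ratio was 0.098 and 28 of 42 members were higher in replicate 1. The median ratio was -0.034 and -0.035 with TPM at pseudocounts of 1 and 0.1. The median leading transcript share was 80.7% with posterior mean TPM, and at a gene minimum of 20 TPM 2 of 8 members had a share under 50%, since fewer genes were compared. That count ranged from 5 to 6 with 1 library left out. No paired analysis was possible because there is 1 group only. Depth limits Vegfa, Vegfc, Erg, Foxq1, Ly6c1, Adgra2, Abcb1a and Anpep most, each with 100 to 234 counts a library.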
